A study of Homo sapiens with 36 samples.

Results

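MyLa is a human T cell line established from mycosis fungoides, the commonest cutaneous T cell lymphoma, and the comparison described here is its response to a short hairpin RNA against GATA3. All libraries labelled MyLa were taken: 3 from cells with a scrambled hairpin (controls, genotype WT in the labels) and 3 from cells with the hairpin against GATA3 (genotype GATA-3 knock down), which makes 6 of the 36 libraries of the series. The series holds poly(A)-selected RNA libraries of 7 human lines of T cell neoplasms with the same pair of arms, and 21138 genes had enough counts to be tested. H9 (2 control and 3 knockdown libraries) and Mac1 (2 and 2), the other two lines that the labels call cutaneous T lymphocytes, serve as the comparison. All lines were kept in RPMI with 10% fetal bovine serum. The labels do not say how many hairpins, clones or separate transductions stand behind the replicates. The p-values below thus measure no more than a spread among replicate libraries, and that spread may be technical. In the main fit it was estimated from all 36 libraries of the 7 lines, and not from the 6 MyLa libraries alone.

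GATA3 is a zinc finger transcription factor that binds the sequence motif shared by the GATA family. It is needed for commitment of progenitors to the T lineage and for the T helper type 2 (Th2) programme, in which it acts on the cytokine genes IL4, IL5 and IL13 and opposes T helper type 1 (Th1) differentiation. Malignant T cells of mycosis fungoides often carry a Th2-like phenotype, and GATA3 is commonly expressed in them.

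Library totals were 25.9 to 28.48 M counts in the controls and 22.97 to 25.02 M in the knockdown, so every knockdown library was shallower than every control. A single count was worth 0.0361 to 0.0431 CPM (counts per M counts of the library, on totals scaled by the TMM method), and totals of the whole series ran from 18.62 to 50.63 M. Genes of the mitochondrial genome took 3.14% to 3.33% of counts in the controls and 3.68% to 4.26% in the knockdown. Of 12 T cell markers, CD2, CD3D, CD3G, TRAC, TRBC1 and TRBC2 were above 0.5 CPM on average and CD3E, CD4, CD5, CD7, LCK and CD28 were below it, with a summed level of 537 to 550 CPM in controls and 563 to 611 CPM in the knockdown. CD4, which names the line in the labels, was at 0.0721, 0.0368 and 0 CPM in the controls and at 0 in all knockdown libraries. The line also carried transcripts used as markers of other cells. COL1A1 was at 104 CPM and COL3A1 at 198 CPM in the controls, TP63 at 70.02 CPM and BLK at 127 CPM. CD79A, EBF1, PDGFRA, KRT10, CSF1R and CD68 were also above 0.5 CPM on average. The remaining markers of the B cell, monocyte or macrophage, fibroblast and keratinocyte lists were each under 0.5 CPM on average. Among these were MS4A1, CD14, LYZ, DCN, LUM, KRT5 and KRT14. The summed level of 7 B cell markers was 185 to 190 CPM in the controls and 171 to 173 CPM in the knockdown. EBF1, 1 of the 7, fell from 53.8 ± 2.44 to 38.2 ± 2.29 CPM (SD, n = 3; edgeR adjusted p = 0.048). The part of these markers in the results was not tested.

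GATA3 (ENSG00000107485, GRCh38 chr10:8045378-8075203, plus strand, protein coding) was at 256, 247 and 242 CPM in the controls and at 155, 149 and 150.2 CPM in the knockdown. The 3 knockdown libraries lay below all controls, and the knockdown kept 60.9% of the control mean. The fitted log2 fold change was -0.72 (SE 0.081, edgeR quasi-likelihood adjusted p = 1.31e-06). GATA3 fell by 1.25 on the log2 scale in H9 and by 1.15 in Mac1, and the fall in MyLa was smaller than the mean of these lines by 0.48 (SE 0.11, edgeR adjusted p = 0.0112), a call lost without Mac1 knockdown replicate 1 (0.0577). The divergent neighbour GATA3-AS1 was at 39.7 ± 1.74 CPM in controls and 38.5 ± 0.624 CPM in the knockdown (SD, n = 3; edgeR adjusted p = 1). GATA2 had 0 counts in every MyLa library, and of 21 tested members of a list of GATA family genes and cofactors without GATA3, 0 passed edgeR's test, 0 had an unadjusted p under 0.05, and DESeq2 and limma-voom called 0.

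Across the transcriptome 397 of 21138 tested genes (1.88%) passed an adjusted p of 0.05 in edgeR's quasi-likelihood test, 215 higher (1.02% of tested genes) and 182 lower (0.861%) in the knockdown. Most changes were small: the median absolute log2 fold change of the called genes was 0.54, with 66 genes at 1 or more and 23 at -1 or less. Of the called genes, 299 averaged at least 5 CPM, and among these 12 rose and 8 fell by at least 1 on the log2 scale. In 395 of the 397 the groups did not overlap, against 24.0% of all tested genes (11.6% higher, 12.4% lower). The count depended on the samples in the fit: a fit of the 6 MyLa libraries alone called 1374 genes (8.84% of the 15549 it tested), and with the replicate number as a block 2712 (17.4%). Leaving out any 1 of the 6 libraries from the fit of all libraries left 196 to 249 calls. The shares of 1.02% and 0.861% are also the background for the counts of called list members below.

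**Figure D1:**
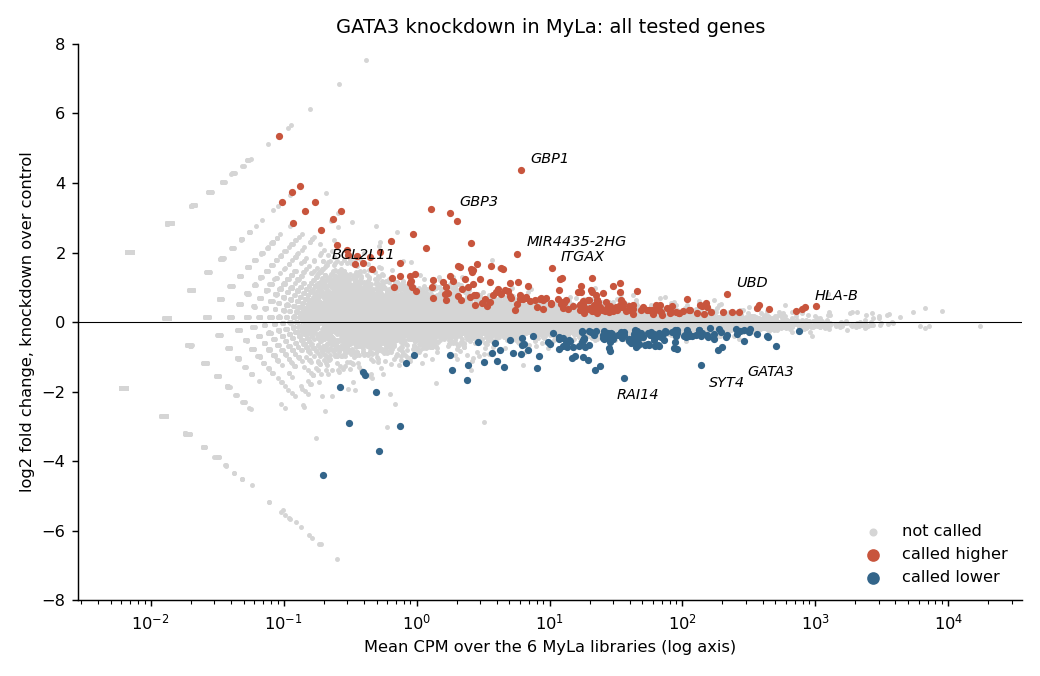
Log2 fold change of knockdown over control against the mean level in the 6 MyLa libraries (log axis), 1 point per tested gene, with the 397 called genes in colour. GBP1 and GBP3 stand above the other called genes of similar level, and the 182 called falls are mostly at 5 CPM or more with small changes.

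The guanylate binding proteins are large GTPases, most of them induced by interferons, and 2 members held the steepest rises. GBP1 (ENSG00000117228, GRCh38 chr1:89052319-89065360, minus strand, protein coding) was at 0.685, 0.588 and 0.393 CPM in the controls (19, 16 and 10 counts) and at 12.8, 11.7 and 10.6 CPM in the knockdown (301, 272 and 264 counts). The groups were far apart, with a 21.0-fold ratio of means, and the fitted log2 fold change was 4.37 (SE 0.23, edgeR adjusted p = 2.26e-13). GBP3, which lies next to it (chr1:89006666-89022894, minus strand), was at 0.325, 0.404 and 0.354 CPM in the controls and 3.18, 2.72 and 3.72 CPM in the knockdown. All knockdown libraries were above all controls, with a log2 fold change of 3.14 (SE 0.18, edgeR adjusted p = 8.07e-12). GBP1 and GBP3 are similar in sequence, so how their reads were split is uncertain.

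The members of the same cluster that MyLa already expressed moved less. GBP5 was at 77.6, 71.05 and 72.8 CPM in controls and 103, 106 and 104 CPM in the knockdown (edgeR adjusted p = 0.0961). GBP4 averaged 42.6 ± 0.711 CPM in controls and 51.7 ± 2.43 CPM in the knockdown (SD, n = 3; edgeR adjusted p = 0.453), and GBP2 1.15 and 1.58 CPM (adjusted p = 0.654). For GBP5 and GBP4 the groups did not overlap although neither passed the test. GBP6 was at 0.503 and 0.597 CPM and GBP7 had 0 counts in all 6 libraries. In all, 2 of 6 tested members rose and none fell, against 1.02% and 0.861% of all tested genes. The 6 members had a median log2 fold change of 0.48 against 0 over all tested genes. The fit of the 6 MyLa libraries alone called 4 of the 6 higher, against 4.91% of its genes.

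The level that GBP1 reached in knockdown MyLa cells was within the range of the other lines' controls. Control means were 121 CPM in H9, 18.6 CPM in Mac1, 21.9 CPM in THP6, 11.4 CPM in MOLT4, 9.28 CPM in CCRF-CEM and 0.103 CPM in SUP-T1. MyLa controls, at 0.556 CPM, were above SUP-T1 alone. Knockdown MyLa cells averaged 11.7 ± 1.09 CPM (SD, n = 3) beside 11.4 ± 0.881 CPM (SD, n = 2) in the MOLT4 controls, a gap smaller than the spread. GBP1 also rose in MOLT4 by 2.51 (log2, SE 0.18, edgeR adjusted p = 1.39e-11) and in THP6 by 0.58 (adjusted p = 0.0204), while the fitted changes in H9 (0.33) and Mac1 (-0.04) did not pass the test. The difference of MyLa from the mean of H9 and Mac1 was 4.23 (SE 0.26, edgeR adjusted p = 1.82e-11).

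Interferons act on these genes through the interferon-stimulated response element, bound by IRF factors, and the gamma-activated site. The stretches below come from RefSeq promoters (GRCh38.p14, 250 bases before to 50 after each start) of genes that rose, and of ISG15, which fell. They are shown so that the called interferon-response genes can be compared by sequence. Each reads 5′ to 3′ along the gene's own strand, and capitals mark the match to the response element (GAAA, any 2 bases, GAAA) on either strand or, in GBP3, to the gamma-activated site (TTCNNNGAA).
GBP1: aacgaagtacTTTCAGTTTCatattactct
GBP3: actgagtcacTTCCTTGAAagaagt
PARP9: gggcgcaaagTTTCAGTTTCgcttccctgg
PSMB10: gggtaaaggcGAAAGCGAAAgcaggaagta
TRIM14: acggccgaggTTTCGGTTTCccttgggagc
ISG15: catgcctcggGAAAGGGAAAccgaaactga
They lie at chr1:89065316-89065345 (minus strand) for GBP1, chr1:89022867-89022891 (minus) for GBP3, chr3:122564322-122564351 (minus) for PARP9, chr16:67936852-67936881 (minus) for PSMB10, chr9:98119229-98119258 (minus) for TRIM14 and chr1:1013374-1013403 (plus) for ISG15. The matches begin at -127, -15, -41, -21, -26 and -113 from the start in the same order, and the ISG15 match overlaps another at -107. GBP1 and PARP9 share the same 10 bases in the match. Response element matches that are not shown include those at -144 in CALD1, which fell, and at -10 in TNFRSF1B and -3 in CASP8, which rose. GBP3 also has a match to the response element at 2, after the start.

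The response element was matched in 6.75% of 237 RefSeq promoters of genes that rose (155 of the 215 had one in the table), 4.0% of 250 promoters of genes that fell, 3.0% of the promoters of all tested genes and 3.57% of all promoters of the same length. The TTCNNNGAA match was in 7.59%, 8.8%, 6.38% and 7.66% in the same order. The GATA motif AGATAA was in 5.91% of promoters of genes that rose, 4.8% of those of genes that fell, 6.45% of those of tested genes and 10.3% of all. These shares are descriptions of letters in windows of fixed length. None of these motifs was found in the RefSeq promoters of SAMD9L, HLA-B, HLA-C, UBD and IL12RB1.

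The wider interferon lists moved in both directions. Of 47 tested members of the type I interferon response 2 rose and 2 fell, against 1.02% and 0.861% of all tested genes, with a median of 0.04. DESeq2 called 6 higher and 3 lower, and the fit of MyLa libraries alone 8 higher and 3 lower of 36 tested, against 4.91% and 3.92% of its genes. SAMD9L, an interferon-inducible regulator of translation, was at 24.3, 24.5 and 23.9 CPM in controls and 45.5, 43.4 and 43.04 CPM in the knockdown (log2 fold change 0.86, SE 0.11, edgeR adjusted p = 5.23e-06). The groups were well separated. PARP9, an ADP-ribosyltransferase family member, rose from 0.425 ± 0.115 to 1.07 ± 0.233 CPM (SD, n = 3; edgeR adjusted p = 0.00059), and its divergent neighbour DTX3L was at 1.25 and 1.64 CPM (adjusted p = 0.481).

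IFIT2, an RNA-binding antiviral protein, fell from 9.7, 8.79 and 7.71 CPM to 5.59, 5.44 and 4.12 CPM (log2 fold change -0.79, edgeR adjusted p = 0.00466). Without knockdown replicate 3 the adjusted p of IFIT2 was 0.0613. ISG15, a ubiquitin-like modifier, fell from 20.9 ± 2.08 to 15.3 ± 2.54 CPM (SD, n = 3; edgeR adjusted p = 0.0429), and lost its call without any of 5 libraries, all but knockdown replicate 1, with adjusted p-values up to 0.326. ISG15 also lost its call with limma-voom (adjusted p = 0.0755) and with DESeq2 size factors in edgeR (adjusted p = 0.0538). IFIT3 was at 12.5 and 9.73 CPM (adjusted p = 0.288).

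Of 17 tested members of the interferon gamma pathway 0 passed edgeR's test in the fit of all libraries. At an unadjusted p under 0.05 there were 2 higher and 1 lower, DESeq2 called 2 higher and limma-voom 1 higher, and the fit of MyLa libraries alone called 3 higher and 1 lower of 12 tested (4.91% and 3.92% of its genes). The transcript of IFNG itself had 0 counts in the controls and 1 knockdown library at 0.0424 CPM. IRF1, an interferon-inducible transcription factor, was at 48.8 ± 2.68 and 61.5 ± 0.655 CPM (SD, n = 3; edgeR adjusted p = 0.0861). For IRF1 every knockdown library was above every control. IFNGR1, IFNGR2, JAK1 and JAK2, the receptor chains and their kinases, had fitted log2 fold changes of 0.03, -0.14, 0.05 and 0.05.

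Of 21 tested genes of MHC class I presentation 5 rose and none fell, against 1.02% and 0.861% of all tested genes. Among the rises were the heavy chain genes HLA-B and HLA-C. HLA-B was at 713, 699 and 731 CPM in controls and 977, 937 and 973 CPM in the knockdown (log2 fold change 0.43, SE 0.081, edgeR adjusted p = 0.00199). HLA-C was at 698, 664 and 691 CPM and then 894, 876 and 915 CPM (0.39, SE 0.053, adjusted p = 3.98e-05). In both genes the lowest knockdown library was above the highest control. Reads of these similar genes can be split between them, and the gene models of HLA-B and HLA-C overlap in GENCODE 29.

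NLRC5, the transactivator of class I genes, rose from 15.9, 14.8 and 14.9 CPM to 22.3, 22.7 and 25.9 CPM (log2 fold change 0.64, SE 0.095, edgeR adjusted p = 0.0001). PSMB10, an immunoproteasome subunit, rose from 35.1 ± 1.85 to 49.3 ± 3.2 CPM (SD, n = 3; adjusted p = 0.000667). The list's median was 0.15. B2M, the class I light chain, was at 1188, 1140 and 1077 CPM in controls and 1526, 1395 and 1263 CPM in the knockdown (adjusted p = 0.173). The peptide transporter gene TAP1 was at 690 and 710 CPM (adjusted p = 0.848) and TAPBP at 494 and 457 CPM (adjusted p = 0.504). Fitted alone, the MyLa libraries called 11 members higher and 1 lower, against 4.91% and 3.92% of the genes in that fit.

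MHC class II genes gave 1 call among 15 tested, with a median of 0.21. CTSS, a lysosomal protease of class II processing, rose from 1.92 ± 0.51 to 3.15 ± 0.327 CPM (SD, n = 3; edgeR adjusted p = 0.0381). CTSS lost its call without any of 5 libraries, all but control replicate 2, with an adjusted p up to 0.253. CD74, the invariant chain, was at 8130, 7839 and 7978 CPM in controls and 10110, 9628 and 10350 CPM in the knockdown (adjusted p = 0.174), and CIITA, the class II transactivator, at 480 and 583 CPM (adjusted p = 0.382). Both had higher values in all knockdown libraries than in any control. HLA-DRA had 0 counts in all 6 libraries, and 0 counts over the 3 controls allow up to 0.0373 CPM (counting error only). The fit of MyLa libraries alone called 8 of 10 tested class II members higher, against 4.91% of its genes.

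HLA-DQB2, a class II beta chain outside the list, was among the 12 steepest rises, from 11.7, 10.5 and 11.7 CPM to 24.2, 22.1 and 23.6 CPM (log2 fold change 1.04, SE 0.13, edgeR adjusted p = 0.000184). Its neighbour HLA-DQA2 rose from 1.39 ± 0.25 to 3.89 ± 0.986 CPM (SD, n = 3; adjusted p = 0.000331). UBD, an interferon-inducible ubiquitin-like modifier encoded in the same region, was at 149.8, 161 and 163 CPM in controls and 283, 268 and 280.3 CPM in the knockdown (0.81, SE 0.12, adjusted p = 0.000572). Exons of UBD overlap those of OR2I1P on the opposite strand, which rose by 0.92 (adjusted p = 0.00759), and those of GABBR1 on its own strand, so reads of these genes may not be fully separated. Of 207 tested genes in the MHC region of chromosome 6 (28 to 34 Mb), 11 rose and 1 fell (5.8% called, against 1.88% of all tested genes), a window set after values were seen.

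**Figure D2:**
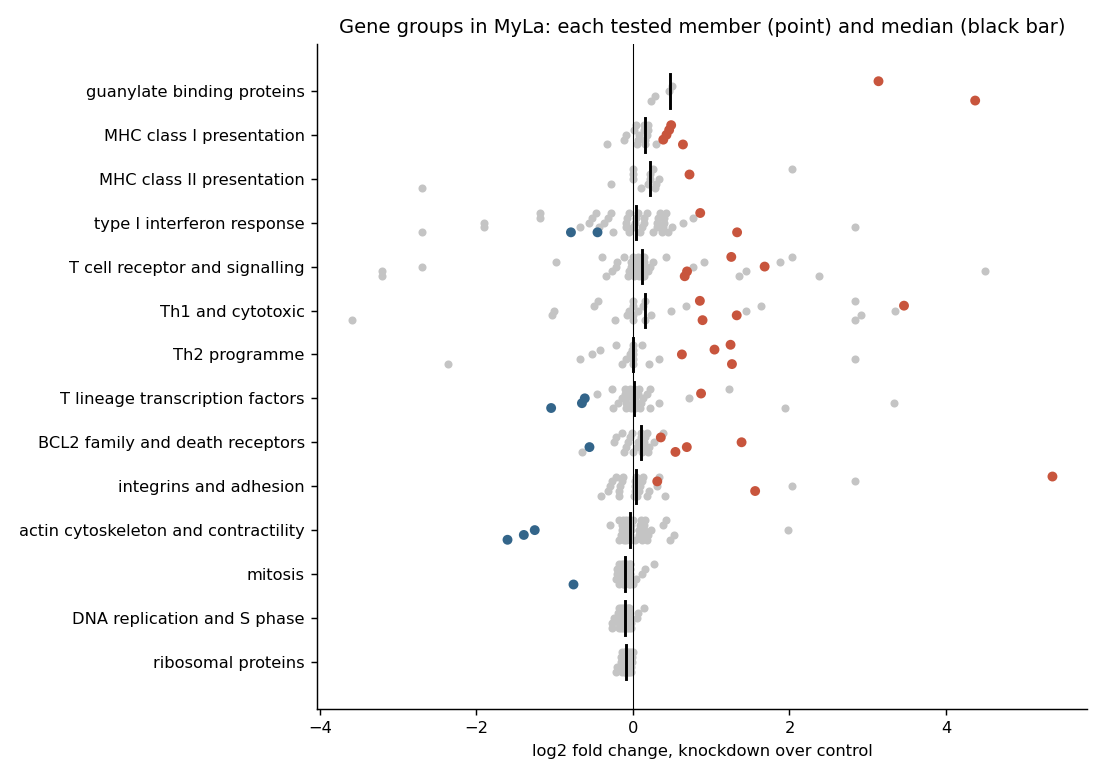
Log2 fold change of knockdown over control for each tested member of 14 gene groups in MyLa (points; called higher in red, called lower in blue, not called in grey), with the group's median as a black bar. The 2 guanylate binding proteins GBP1 and GBP3 are far to the right of their group, and the 40 ribosomal protein genes are all below 0 (39 of them with DESeq2 size factors).

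The long noncoding RNA MIR4435-2HG (ENSG00000172965, GRCh38 chr2:111036776-111523376, minus strand), a host transcript of a microRNA, was at 2.67, 1.91 and 2.4 CPM in controls and 9.62, 8.58 and 9.17 CPM in the knockdown. The groups did not overlap (log2 fold change 1.97, SE 0.13, edgeR adjusted p = 3.74e-11). CYTOR (chr2:87454781-87636740, plus strand), a near-identical copy of part of the same locus, was at 0.974, 1.18 and 1.02 CPM and then 3.22, 2.5 and 3.88 CPM (1.6, SE 0.16, adjusted p = 1.72e-07), and LINC01943 beside it rose by 3.26 (adjusted p = 4.29e-07). How the counting split reads between these copies is uncertain. In Mac1 MIR4435-2HG fell by 0.64 (adjusted p = 0.00161) and in H9 it was not called (0.11), so the difference of MyLa from these lines was 2.23 (SE 0.16, adjusted p = 3.34e-10).

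BCL2L11, which encodes the proapoptotic protein BIM, lies within the span of MIR4435-2HG on the other strand (chr2:111119378-111168447). It rose from 0.685, 0.404 and 0.511 CPM to 1.31, 1.51 and 1.4 CPM (log2 fold change 1.39, SE 0.23, edgeR adjusted p = 0.0005), and its exons overlap those of MIR4435-2HG. MyLa held little BCL2L11 beside H9, where the control mean was 199 CPM, and Mac1 had 0 counts. Of 28 tested members of the BCL2 family and death receptors 4 rose and 1 fell, against 1.02% and 0.861% of all tested genes. The median was 0.11. The rises included 2 initiator caspases, CASP8 from 54.5 ± 3.11 to 69.8 ± 1.42 CPM (SD, n = 3; adjusted p = 0.0301) and CASP10 from 2.52 ± 0.0629 to 3.68 ± 0.241 CPM (adjusted p = 0.00722). CASP8 lost its call without any 1 of the 6 libraries (adjusted p up to 0.172) and CASP10 without knockdown replicate 2 (0.0748).

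BCL2L1, which encodes the survival protein BCL-XL, fell. It was at 355, 340.2 and 348 CPM in controls and 249.6, 229 and 232 CPM in the knockdown (log2 fold change -0.56, SE 0.065, edgeR adjusted p = 2.65e-06). Every knockdown library was below every control. In Mac1 BCL2L1 rose by 0.31 (adjusted p = 0.0145), and the difference of MyLa from H9 and Mac1 was -0.61 (SE 0.085, adjusted p = 8.82e-05). BCL2 was at 3.82 and 4.98 CPM (adjusted p = 0.0545) and MCL1 at 123 and 138 CPM (adjusted p = 0.316). GSDME, a pore-forming gasdermin cleaved by caspase-3 and outside the list, rose from 16.6 ± 0.0951 to 28.2 ± 0.714 CPM (SD, n = 3; adjusted p = 2.04e-06).

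Among signalling genes of the T cell receptor 4 of 47 tested rose and none fell, against 1.02% and 0.861% of all tested genes. The median was 0.11. DESeq2 and limma-voom each called 5 higher and 1 lower. The fit of MyLa libraries alone called 5 higher and 2 lower of 34 tested, against 4.91% and 3.92% of its genes. RASGRP2, a calcium-dependent exchange factor for RAP1, was at 7.72, 6.95 and 7.43 CPM in controls and 17.04, 17.9 and 17.9 CPM in the knockdown. The spread within each group was small (log2 fold change 1.26, SE 0.098, edgeR adjusted p = 7.11e-10). RASGRP1, the exchange factor that activates RAS below the receptor, rose from 4.62 ± 0.144 to 7.31 ± 0.357 CPM (SD, n = 3; adjusted p = 9.56e-05). TRBC1, a receptor constant region, rose from 3.92 to 6.31 CPM (adjusted p = 7.65e-05). TRBC2, a near-identical copy, was at 201 and 221 CPM (adjusted p = 0.599), so reads of the pair may be split.

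CD3E was called higher at a very low level, 0.162 against 0.529 CPM (edgeR adjusted p = 0.00842), and lost its call without control replicate 2 (0.059) or knockdown replicate 3 (0.0544). The abundant CD3 chains stood at 123 and 134 CPM for CD3D (adjusted p = 0.592) and at 71.8 and 70.4 CPM for CD3G (adjusted p = 1). CD96, an adhesion and checkpoint receptor, was the 1 call among 19 tested checkpoint genes, rising from 29.4, 30.6 and 27.4 CPM to 43.8, 43.8 and 39.1 CPM (log2 fold change 0.54, SE 0.1, adjusted p = 0.00244). No knockdown library of CD96 reached down to the controls.

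Of 22 tested genes of the Th2 programme 4 rose and none fell, against 1.02% and 0.861% of all tested genes. The median was 0. DESeq2 called 3 higher and 1 lower, limma-voom 3 and 2, and the replicate block left 2 higher. The fit of MyLa libraries alone called 5 higher and 1 lower of 15 tested, against 4.91% and 3.92% of its genes. IL9, a cytokine of Th9 and Th2 cells, was at 20.2, 18.7 and 19.8 CPM in controls and 40.2, 40.2 and 40.6 CPM in the knockdown (log2 fold change 1.04, SE 0.17, edgeR adjusted p = 0.005). Its groups were far apart. CCL17, a ligand of CCR4, rose from 1.37 ± 0.191 to 3.26 ± 0.0944 CPM (SD, n = 3; adjusted p = 0.0456) and CCR8, a chemokine receptor, from 0.385 ± 0.0842 to 0.932 ± 0.0691 CPM (adjusted p = 0.0488). Both lost their calls under the replicate block (0.0933 for CCL17 and 0.0717 for CCR8) and without any 1 of the 6 libraries (up to 0.217 and 0.195).

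GFI1, a transcriptional repressor, rose from 1.71 ± 0.222 to 2.63 ± 0.0784 CPM (SD, n = 3; edgeR adjusted p = 0.0106), and lost its call without control replicate 1 (0.141) or 3 (0.0537), or knockdown replicate 2 (0.0553) or 3 (0.0678). The cytokine genes named as GATA3 targets were not called: IL13 was at 30.1 ± 2.11 and 29.4 ± 1.46 CPM (SD, n = 3; adjusted p = 1), IL4 at 0.0251 and 0.0141 CPM, and IL5, at 0.196 and 0.0285 CPM, had too few counts to be tested. CCR4 was at 187, 191 and 176 CPM in controls and 137, 138 and 140.0 CPM in the knockdown, with an adjusted p of 0.0501 just outside the threshold and no overlap of the groups. CCR8 and CCL17 were also counted in the list of chemokine receptors and ligands. In that list 3 of 30 tested rose, against 1.02% of all tested genes, and 1 under the replicate block.

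Genes of the Th1 and cytotoxic programme rose in 4 of 29 tested members and none fell, against 1.02% and 0.861% of all tested genes. The median was 0.15. DESeq2 called 5 higher and 0 lower, and limma-voom 3 and 1. The fit of MyLa libraries alone called 4 higher and 1 lower of 14 tested, against 4.91% and 3.92% of its genes. IL12RB1, a chain of the IL-12 and IL-23 receptors, was at 15.8, 13.5 and 15.5 CPM in controls and 26.4, 26.6 and 27.9 CPM in the knockdown. The lowest knockdown value was well above the highest control (log2 fold change 0.86, SE 0.092, edgeR adjusted p = 5.56e-07). EOMES, a T-box factor, rose from 1.01 ± 0.0911 to 2.54 ± 0.529 CPM (SD, n = 3; adjusted p = 0.000174). NKG7, a granule protein, rose from 0.701 to 1.3 CPM (adjusted p = 0.0293), and lost its call without any of 5 libraries, all but control replicate 3 (up to 0.197).

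TBX21, the Th1 master factor, had 0 counts in the controls and averaged 0.0282 CPM in the knockdown, PRF1 was at 25.8 and 25.7 CPM (edgeR adjusted p = 1), and STAT4 at 1.13 and 0.555 CPM (adjusted p = 0.175). Of 18 tested regulatory T cell genes TNFRSF1B, the second TNF receptor, rose from 53.1 ± 2.71 to 74.4 ± 0.363 CPM (SD, n = 3; adjusted p = 0.0263), as did CCR8. TNFRSF1B lost its call without any 1 of the 6 libraries (up to 0.162).

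Transcription factors of the T lineage gave 1 rise and 3 falls among 37 tested, against 1.02% and 0.861% of all tested genes. The median was 0.01. DESeq2 called 3 higher and 4 lower, and limma-voom 3 and 3. PRDM1, which encodes the repressor BLIMP1 of terminal differentiation, was at 12.4, 13 and 11.2 CPM in controls and 21.02, 21.01 and 24.9 CPM in the knockdown (log2 fold change 0.87, SE 0.1, edgeR adjusted p = 3.62e-06). BACH2, a repressor that acts against PRDM1 in lymphocytes, was at 19.1, 20.7 and 19.4 CPM and then 10.4, 8.71 and 9.57 CPM (-1.04, SE 0.15, adjusted p = 0.00011). The levels of both factors were separated by group, in opposite directions. Exons of BACH2 overlap those of the antisense gene AL121787.1 on the opposite strand.

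TOX, a nuclear factor of T cell development that is also a marker of mycosis fungoides, was at 59.6, 56.6 and 54.6 CPM in controls and 35.8, 36.3 and 36.6 CPM in the knockdown (log2 fold change -0.65, SE 0.064, edgeR adjusted p = 9.57e-08). TCF7, which encodes the factor TCF1 of naive and memory T cells, fell from 49.9 ± 2.75 to 32.6 ± 1.1 CPM (SD, n = 3; adjusted p = 0.00223). All TOX and TCF7 knockdown values were below the controls. TOX was also the only called member among 24 tested mycosis fungoides and Sézary markers and among 18 tested Th17 and follicular helper genes. PRDM1 and TOX differed from the mean of H9 and Mac1 by 0.87 (adjusted p = 0.000344) and -0.68 (adjusted p = 8.08e-06), and neither gene was called in those lines. NKX2-8, a homeobox factor, fell from 26.5 ± 1.72 to 12.5 ± 0.455 CPM (SD, n = 3; adjusted p = 0.00035), and YAP1, the coactivator of the Hippo pathway, from 109 ± 6.32 to 64.6 ± 5.18 CPM (adjusted p = 0.00019).

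Of 30 tested integrin and adhesion genes 3 rose and none fell, against 1.02% and 0.861% of all tested genes. The median was 0.04. DESeq2 called 2 higher and 1 lower, and limma-voom 3 and 1. The fit of MyLa libraries alone called 5 higher and 2 lower of 23 tested, against 4.91% and 3.92% of its genes. ITGAX, the integrin alpha X chain (CD11c), was at 5.52, 4.67 and 5.55 CPM in controls and 13.8, 14.4 and 18.3 CPM in the knockdown (log2 fold change 1.56, SE 0.2, edgeR adjusted p = 8.07e-05). It rose by 1.42 in Mac1 too (adjusted p = 0.000336). SELPLG, the ligand of P-selectin, rose from 90.05 ± 2.39 to 112 ± 4.34 CPM (SD, n = 3; adjusted p = 0.0143), and ITGB3, the integrin beta 3 chain, from 0 counts in every control to 0.183 CPM, at least 4.9-fold higher against a floor of 3 counts over the controls (adjusted p = 0.0189). SELPLG lost its call without control replicate 1 or 2 or knockdown replicate 2 or 3 (up to 0.154), and ITGB3 without any control or knockdown replicate 2 (up to 0.1). F2R, the thrombin receptor, rose from 18 ± 0.593 to 32.2 ± 0.737 CPM (SD, n = 3; adjusted p = 1.21e-07).

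Among called genes at 5 CPM or more, the steepest falls were in the actin-binding proteins RAI14 and CALD1. RAI14 (ankycorbin; ENSG00000039560, GRCh38 chr5:34656237-34832627, plus strand) was at 56.5, 56.6 and 51.4 CPM in controls and 19.1, 19.3 and 15.8 CPM in the knockdown (log2 fold change -1.6, SE 0.16, edgeR adjusted p = 5.35e-06). CALD1 (caldesmon; chr7:134744252-134970728, plus strand) was at 32.8, 30.45 and 32.2 CPM and then 12.5, 11.1 and 12.7 CPM (-1.39, SE 0.18, adjusted p = 0.00059). PLEKHH2, a pleckstrin homology protein of the actin cortex, fell from 33.6 ± 2.46 to 14.1 ± 0.895 CPM (SD, n = 3; adjusted p = 0.000334). None of the 3 had overlapping groups. They were the only called members among 43 tested actin genes, against 0.861% of all tested genes called lower. The median of the 43 was -0.03, near the -0.03 of all genes at 5 CPM or more.

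Vesicle genes gave SYT4 and SYTL1 as the calls among 25 tested. SYT4, a synaptotagmin, was at 204, 197 and 184 CPM in controls and 88.5, 87.9 and 70.5 CPM in the knockdown (log2 fold change -1.24, SE 0.11, edgeR adjusted p = 5.51e-05). Knockdown replicate 3 was the lowest library, and all knockdown values were under those of the controls. SYTL1, a synaptotagmin-like effector of RAB27, rose from 0.213 ± 0.0659 to 0.857 ± 0.327 CPM (SD, n = 3; adjusted p = 0.00332), and lost its call without knockdown replicate 3 (0.0709). The other large falls were FLVCR2, a membrane transporter, from 11.5 ± 0.339 to 4.6 ± 0.35 CPM (adjusted p = 4.59e-06), and GPR183, an oxysterol-sensing chemotactic receptor, from 7.91 ± 0.182 to 4.2 ± 0.512 CPM (adjusted p = 0.000392). BASP1, a membrane-bound signalling protein, fell by 0.99 (adjusted p = 0.00161), DIXDC1, a Wnt pathway protein, by 0.98 (adjusted p = 0.000303) and ATP8B4, a phospholipid flippase, by 0.90 on the log2 scale (adjusted p = 0.00377).

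**Figure D3:**
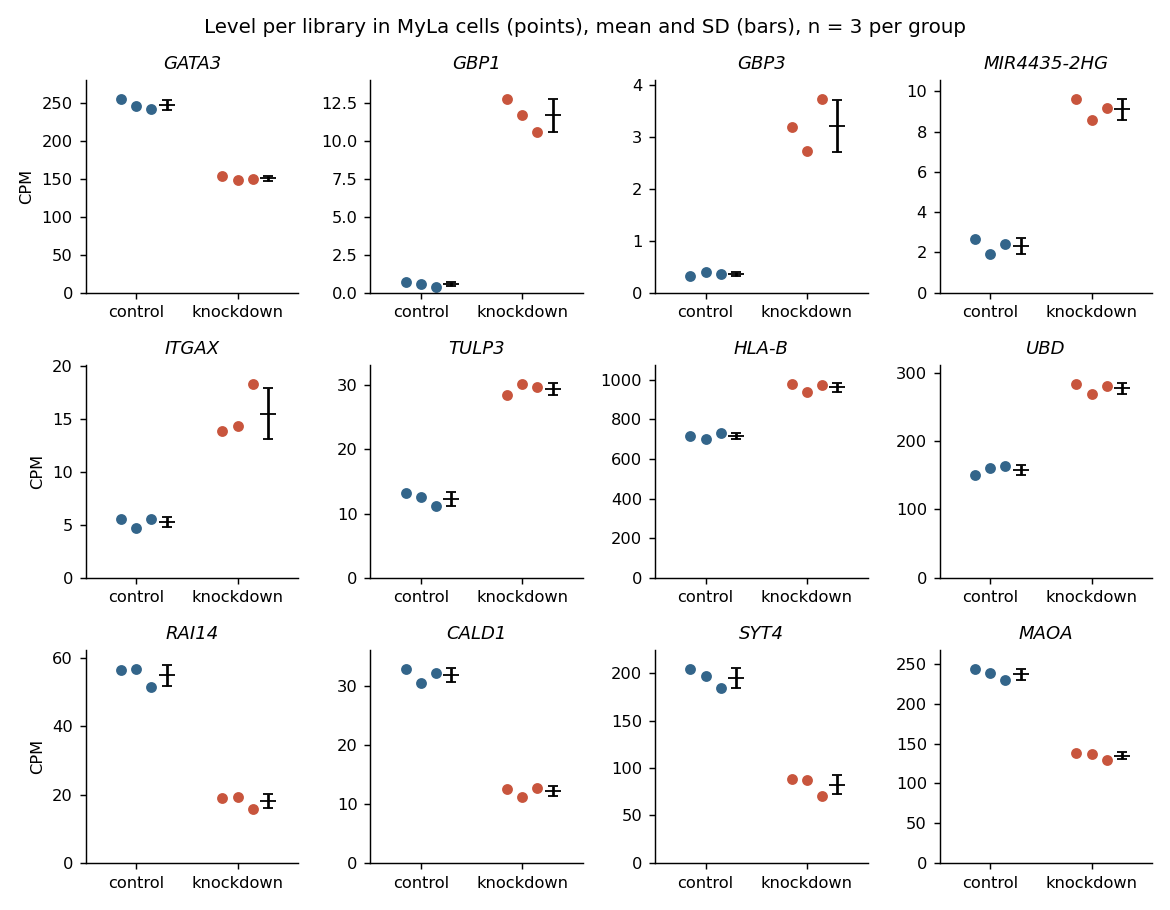
Level in CPM of 12 genes in each of the 6 MyLa libraries (points), with the group's mean and SD (bars, n = 3), all axes from 0. In every panel the knockdown libraries lie on one side of the controls, from 0.393 to 0.685 against 10.6 to 12.8 CPM for GBP1 and from 51.4 to 56.6 against 15.8 to 19.3 CPM for RAI14.

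The remaining steep rises at 5 CPM or more came from unrelated classes. TULP3, a tubby-like protein of ciliary trafficking, was at 13.3, 12.6 and 11.1 CPM in controls and 28.4, 30.1 and 29.8 CPM in the knockdown (log2 fold change 1.25, SE 0.12, edgeR adjusted p = 3.15e-08). TENT5C, a noncanonical poly(A) polymerase, was at 19.7, 23.2 and 21.4 CPM and then 45.9, 49.7 and 43.6 CPM (1.11, SE 0.086, adjusted p = 7.11e-10). Neither gene had a knockdown library near the controls. HIST1H2BK, a histone H2B gene, rose by 1.24 (adjusted p = 0.000203), RIMBP2, a RIM-binding scaffold, by 1.15 (adjusted p = 0.000207), TFPI, the inhibitor of tissue factor, by 1.13 (adjusted p = 0.00099) and SLC4A5, a bicarbonate cotransporter, by 1.04 on the log2 scale (adjusted p = 0.00116).

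Among cytokine receptors and JAK-STAT genes the fit of all libraries gave few calls. TNFSF4 (OX40 ligand) fell from 68.1 ± 4.34 to 43 ± 4.54 CPM (SD, n = 3; edgeR adjusted p = 0.0359) and IL10RA from 122 ± 4.32 to 89.96 ± 2.88 CPM (adjusted p = 0.00144), the calls among 37 tested cytokines and receptors. The balance of this list turned in the fit of MyLa libraries alone, which called 7 higher and 4 lower of 32 (12 and 5 with the replicate block), against 4.91% and 3.92% of its genes (9.22% and 8.22%). Of 23 tested JAK-STAT genes PIM2, a kinase induced by STAT5, rose from 101 ± 3.39 to 128 ± 8.49 CPM (SD, n = 3; adjusted p = 0.00363). STAT5A, by contrast, was at 816, 799 and 835 CPM in controls and 678, 663 and 692 CPM in the knockdown (log2 fold change -0.27, SE 0.066, adjusted p = 0.0263), and SH2B3 (LNK, an inhibitor of JAK signalling) fell from 30.5 ± 2.44 to 22.9 ± 0.632 CPM (SD, n = 3; adjusted p = 0.00545). The STAT5A groups were close but did not overlap. TNFSF4 and STAT5A lost their calls without any 1 of the 6 libraries (up to 0.203 and 0.139), PIM2 without knockdown replicate 3 (0.0615) and SH2B3 without control replicate 1 (0.0587). TNFAIP2 rose from 3.73 ± 0.408 to 6.3 ± 0.536 CPM (SD, n = 3; adjusted p = 0.0381), the 1 call among 32 tested NF-kB genes, and lost it under the replicate block (0.0598) and without any 1 library (up to 0.189). DUSP2, a MAP kinase phosphatase, fell by 0.27 on the log2 scale (adjusted p = 0.0463), the 1 call among 30 tested immediate early genes, and lost it under the block (0.0628) and without any 1 library (up to 0.218). DESeq2 called 3 immediate early genes lower and 1 higher, and the fit of MyLa libraries alone 7 of 24 lower and none higher, against 3.92% of its genes called lower.

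Metabolic and stress lists held isolated calls. SREBF1 rose from 315, 314 and 315 CPM to 398, 404 and 440.5 CPM (log2 fold change 0.40, SE 0.084, edgeR adjusted p = 0.00714), while SREBF2, the paralogue that drives cholesterol synthesis, fell from 294, 283 and 292 CPM to 219, 222 and 246 CPM (-0.34, SE 0.077, adjusted p = 0.0143). The 2 sterol regulators thus moved in opposite directions, each without overlap of its groups. SREBF1 lost its call without knockdown replicate 3 (0.0765), and SREBF2 without control replicate 1 (0.0683) or 3 (0.057), or knockdown replicate 1 (0.0941) or 2 (0.0809). LSS, lanosterol synthase, rose by 0.36 (adjusted p = 0.0331), and no other of 29 tested synthesis genes was called. LSS lost its call without any 1 of the 6 libraries (up to 0.202).

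In lipid and iron handling ABCG1, a cholesterol exporter, rose from 14.3 ± 1.2 to 21.7 ± 0.635 CPM (SD, n = 3; edgeR adjusted p = 0.00361) and FTL, ferritin light chain, from 642 ± 0.723 to 793 ± 38.3 CPM (adjusted p = 0.0438). SLC27A2, a fatty acid transporter, fell from 24.6 ± 1.86 to 18.9 ± 0.718 CPM (adjusted p = 0.0226), and it overlaps the exons of ATP8B4, which fell too. FTL lost its call under the replicate block (0.0642) and without any 1 library (up to 0.199), and SLC27A2 without any of 5 libraries, all but control replicate 3 (up to 0.158). SEL1L, an adaptor of endoplasmic reticulum degradation, fell from 202 ± 7.13 to 145 ± 6.8 CPM (SD, n = 3; adjusted p = 0.0108), the 1 call among 21 tested genes of the unfolded protein response, and lost it without knockdown replicate 1 (0.0619) or 3 (0.0505). SLC7A5, an amino acid transporter, rose by 0.30 (adjusted p = 0.0286), the 1 call among 28 tested genes of the integrated stress response, and lost it without any 1 library (up to 0.173). RRM2B, a ribonucleotide reductase subunit, was at 26, 24.6 and 20.6 CPM and then 12.4, 13.03 and 9.85 CPM (log2 fold change -1.01, SE 0.14, adjusted p = 4.88e-05), and was the 1 call among 23 tested p53 targets.

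Cell cycle and growth lists had few calls in the fit of all libraries. KIF20A, a mitotic kinesin, was at 115, 116 and 115 CPM in controls and 65.2, 66.5 and 71.9 CPM in the knockdown (log2 fold change -0.77, SE 0.065, edgeR adjusted p = 4.28e-09). The drop was tight within each group and was the 1 call among 40 tested mitosis genes, whose median was -0.1. Of 40 tested genes of DNA replication and S phase edgeR called 0 (median -0.11, 37 with a negative sign). In this list 5 were lower at an unadjusted p under 0.05, DESeq2 called 2 lower and limma-voom 0. The fit of MyLa libraries alone called 3 lower and none higher, and the same fit with the replicate block 11 lower and 1 higher, against 3.92% and 8.22% of their genes called lower. Ribosomal protein genes had a median of -0.09 with 40 of 40 negative, or 39 with DESeq2 size factors. Of these, edgeR, DESeq2 and limma-voom called 0 and 2 were lower at an unadjusted p under 0.05. At 5 CPM or more the median of all tested genes was -0.03.

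Mitochondrially encoded genes had the opposite sign: 12 of 13 were positive, with a median of 0.25. Calls by edgeR, DESeq2 and limma-voom in the fit of all libraries were 0, as was the count at an unadjusted p under 0.05. MT-CO1 averaged 5769 CPM in controls and 7654 CPM in the knockdown (edgeR adjusted p = 0.647), beside the higher mitochondrial share of counts in the knockdown given above, whose part was not tested. The fit of MyLa libraries alone called 6 of the 13 higher and the same fit with the replicate block 9, against 4.91% and 9.22% of their genes (3.92% and 8.22% were called lower). Of 36 tested nuclear genes of oxidative phosphorylation only COX7C, a subunit of complex IV, was called, rising from 116, 120.4 and 118 CPM to 169, 160.5 and 161 CPM (log2 fold change 0.47, adjusted p = 0.0344). COX7C lost its call under the replicate block (0.0519) and without any 1 library (up to 0.154). The list's median was -0.06.

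By absolute change the largest rises and falls were in abundant genes of surface and signalling proteins. Beside the HLA genes, UBD and FTL, SEMA4D (CD100, a semaphorin of T cells) was at 314, 314 and 316 CPM in controls and 438, 439 and 447 CPM in the knockdown (log2 fold change 0.49, SE 0.079, edgeR adjusted p = 0.000334). IGSF3, an immunoglobulin superfamily protein, fell from 640, 618 and 613 CPM to 373, 389 and 392 CPM (-0.70, SE 0.092, adjusted p = 2.5e-05). Both had narrow groups that did not meet. GNB1, a G protein beta subunit, fell from 502 ± 19.4 to 371 ± 6.27 CPM (SD, n = 3; adjusted p = 3.62e-06) and VDAC1, the outer mitochondrial membrane channel, from 492 ± 8.69 to 375 ± 13.1 CPM (adjusted p = 0.00484).

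Called genes also lay near each other, a pattern chosen after the values were seen. Taking called genes less than 50 kb apart with no other called gene in between gave 22 pairs of 44 genes. Of these pairs, 15 had both genes higher, 5 both lower and 2 opposite directions. Tested genes that were not called may lie between the genes of a pair. Direct neighbours among all tested genes at the same gap gave 15432 pairs, of which 48.1% had log2 fold changes of one sign. That share is counted over signs and not calls, and over pairs built in a different way. Some pairs are paralogues or overlap, where shared reads can give the same sign, among them GBP3 and GBP1, HLA-C and HLA-B, OR2I1P and UBD, MIR4435-2HG and BCL2L11, LINC01943 and CYTOR, MAOA and MAOB, and CASP10 and CASP8.

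Among pairs whose gene models do not overlap, MAOA and MAOB, the paralogous monoamine oxidases on chromosome X, fell together. MAOA was at 243, 238 and 229.9 CPM in controls and 138, 137 and 129.7 CPM in the knockdown (log2 fold change -0.82, SE 0.09, edgeR adjusted p = 1.97e-06), and MAOB fell from 35.2 ± 1.92 to 21 ± 1.46 CPM (SD, n = 3; adjusted p = 0.0206). MAOB lost its call without any 1 of the 6 libraries (up to 0.128). CASP10 and CASP8, 4036 bases apart, rose together, as did IQGAP2, a scaffold protein, and F2R, 7910 bases apart, with log2 fold changes of 0.53 and 0.84. GSDME and OSBPL3, 38425 bases apart, went in opposite directions, with OSBPL3 falling by 0.36 on the log2 scale (adjusted p = 0.004).

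**Figure D4:**
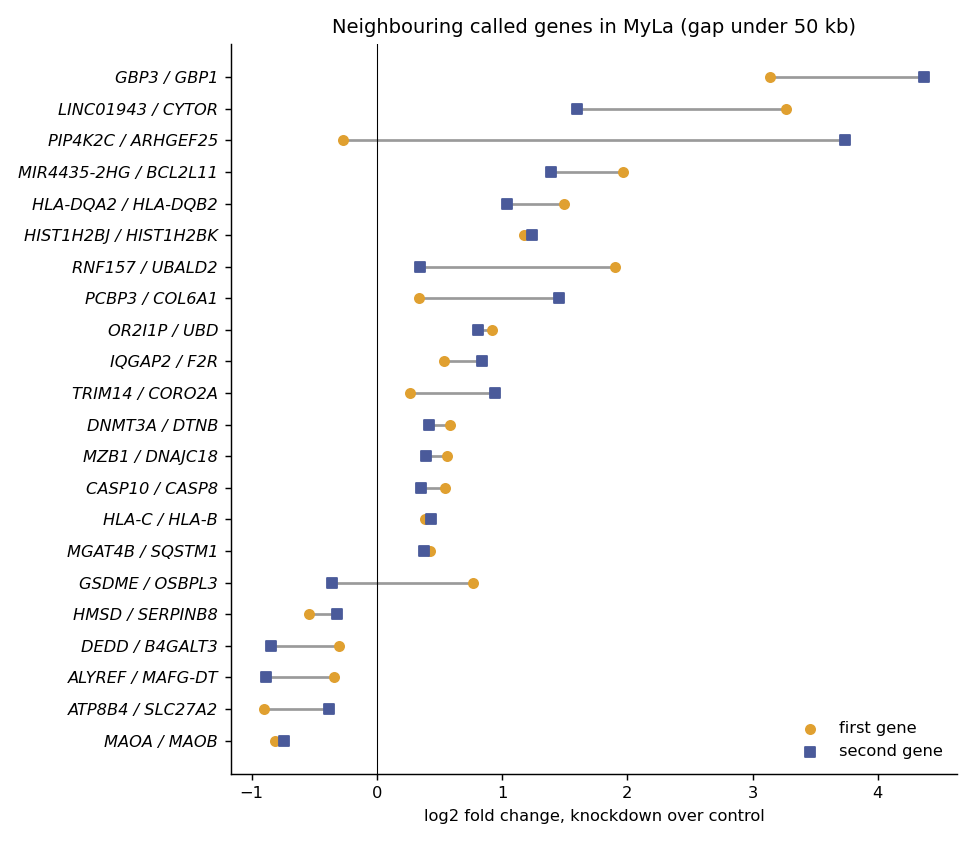
Log2 fold changes in MyLa of the 22 pairs of called genes less than 50 kb apart (circle, first gene; square, second gene; a grey line joins the pair). The GBP3 and GBP1 pair is farthest to the right, MAOA and MAOB fell alike, and the PIP4K2C with ARHGEF25 and GSDME with OSBPL3 pairs cross 0.

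H9 and Mac1, the other cutaneous lines, had part of the MyLa calls. H9 had 384 calls (1.82% of tested genes) and Mac1 1668 (7.89%). MyLa shared 47 calls with H9, 11.8% of the MyLa calls and 12.2% of the H9 calls, of which 41 went the same way. It shared 97 with Mac1, 24.4% of the MyLa calls and 5.82% of the Mac1 calls, of which 77 went the same way. In 21 genes all 3 lines were called in the same direction.

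Besides GATA3, those 21 genes include TULP3, which rose by 1.25 in MyLa, 0.99 in H9 and 2.13 in Mac1 (edgeR adjusted p = 3.15e-08, 2.94e-05 and 5.25e-10). SEMA4D rose by 0.49, 0.49 and 0.81, PIM2 by 0.34, 0.38 and 0.64, LIMK1, a kinase that phosphorylates cofilin, by 0.47, 0.47 and 0.59, and COX7C by 0.47, 0.74 and 1.25 in the same order. These 4 genes thus rose in all 3 cutaneous lines. B4GALT3, a galactosyltransferase, fell in all 3, from 37.8, 35.7 and 36.7 CPM to 20.3, 18.4 and 22.6 CPM in MyLa (log2 fold changes -0.85 in MyLa, -1.21 in H9 and -0.98 in Mac1).

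TULP3 also rose outside the cutaneous lines, by 1.04 in THP6, 1.27 in MOLT4 and 1.53 in CCRF-CEM. In SUP-T1, where GATA3 was 1.76 higher (log2) in the libraries labelled knockdown than in those labelled control, TULP3 was lower by 2.23 in the same libraries (edgeR adjusted p = 8.37e-14). The GATA3 result in SUP-T1 goes against the label, so no direction of a knockdown is drawn from it.

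The test of the difference between the response of MyLa and the mean response of H9 and Mac1 called 372 genes (1.76% of tested genes), 125 with a more positive response in MyLa (0.591%) and 247 with a more negative one (1.17%). Mac1 itself was called in 231 of the 372 and H9 in 56. RASGRP2 rose by 1.01 more in MyLa (SE 0.12, edgeR adjusted p = 7.02e-06), TENT5C by 0.96 (adjusted p = 2.81e-06), IL12RB1 by 0.96 (adjusted p = 1.56e-05) and RASGRP1 by 0.85 (adjusted p = 6.89e-05), and none of these 4 was called in H9 or Mac1. The differences were negative for KIF20A (-0.66, adjusted p = 1.88e-05), GPR183 (-0.93, adjusted p = 0.00736) and RRM2B (-0.83, adjusted p = 0.0114). Against the mean response of 5 other lines IL12RB1 (0.37, adjusted p = 0.0991) and RRM2B (-0.50, adjusted p = 0.113) lost their calls.

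Several of the strongest MyLa changes were in genes hardly expressed in H9 or Mac1, where a response of those lines could not be measured. Of the 12 steepest falls at 5 CPM or more, RAI14, CALD1, PLEKHH2, SYT4, NKX2-8 and BASP1 averaged under 0.5 CPM in H9, and the first 5 and BACH2 did so in Mac1. Of the 12 steepest rises, ITGAX, TFPI and IL9 were under that level in H9, and RIMBP2, TFPI and IL9 in Mac1. Among all 397 called genes 64 were under 0.5 CPM in H9 and 80 in Mac1. RAI14 was expressed in another line, MOLT4, at 12.1 CPM in the controls, and fell there by 1.5 on the log2 scale (edgeR adjusted p = 3.46e-05).

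**Figure D5:**
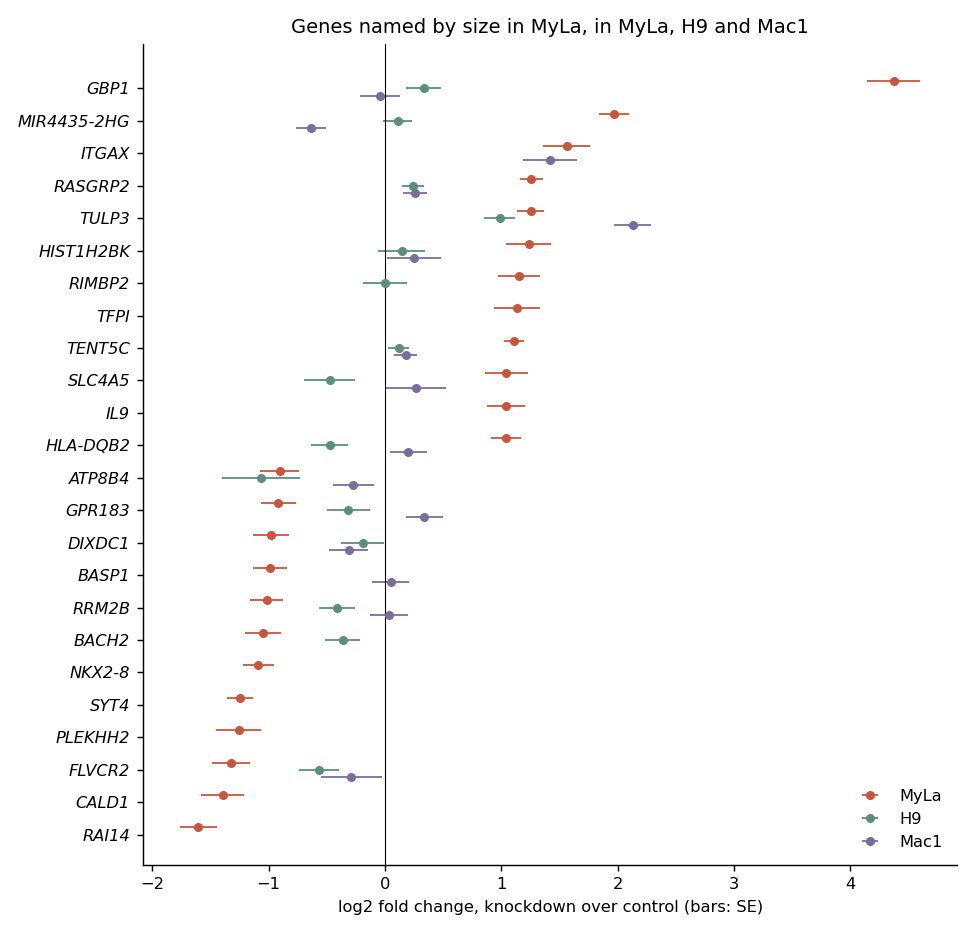
Log2 fold change of knockdown over control (points) with its SE (bars) in MyLa, H9 and Mac1 for the 12 steepest rises and 12 steepest falls in MyLa at 5 CPM or more. A line's point is left out where the gene averaged under 0.5 CPM in it. TULP3 moved to the right in all 3 lines, ITGAX in MyLa and Mac1, and GBP1 in MyLa far more than in the other 2.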

How the data were processed

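Polyadenylated RNA was sequenced in 36 libraries, 6 of them from MyLa. The deposited values are expected counts of each gene, made by the authors with cutadapt 2.3, STAR 2.7.8a and RSEM 1.3.3 on GRCh38, per the submitters' processing notes. All deposited values were whole, so rounding changed none. Which annotation release and strand setting were used was not given in the sources used here, so reads of overlapping genes on opposite strands may not be separated. Rows for 5 reporter sequences held 0 counts and were left out, and every column was mapped to a sample.

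The titles gave each sample's line and arm. A model with 1 mean per group was fitted to all 36 libraries with edgeR 4.0.16 in R 4.3.3, after TMM scaling and filterByExpr (21138 of 60623 genes tested), so the other lines add to the estimate of the spread (common dispersion 0.0118). Quasi-likelihood F tests, two-sided, had p-values adjusted after Benjamini and Hochberg over all tested genes, with a threshold of 0.05 for a call. The contrasts were MyLa knockdown minus control, and that response minus the mean response of H9 and Mac1. Levels are CPM on TMM-scaled totals, and log2 fold changes are those of the fit. The SE of a log2 fold change was derived from the test, as its absolute value divided by the square root of the F statistic. Genes of 36 lists were counted without a test over the list. The members and lists were chosen with earlier results of these data known. Named were GATA3, the 12 highest and 12 lowest log2 fold changes among called genes with no overlap of groups and at least 5 CPM, the 6 largest rises and falls in CPM, called list members (others with values only; a few are not reported here), and the 8 highest and lowest differences at 5 CPM or more. EBF1, GATA3-AS1, GSDME, F2R, YAP1, HLA-DQA2, CYTOR, LINC01943, OR2I1P, LIMK1, B4GALT3, TRIM14 and the neighbouring pairs were chosen after values were seen.

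Replicate numbers were checked as a pairing. At genes of 5 CPM or more, residuals of same-numbered MyLa libraries correlated at 0.372, 0.381 and 0.298 (0.0918, 0.0223 and 0.0277 over all tested genes). The numbers were taken to pair the libraries, from the data and not from the labels, only in the alternatives with a replicate block. The main fit had no block, so its p-values ignore any such pairing. Pearson correlations of log2 CPM were 0.991 to 0.997 within groups and 0.986 to 0.993 between them. Replicates scattered by 4.46 to 11.3 Poisson variances per gene, so no library was a copy of another. Alternatives were DESeq2 1.42.0, its size factors in edgeR, limma-voom (limma 3.58.1), no filter, at least 10 counts in 2 libraries, the replicate block, fits of fewer lines, the mean of 5 other lines for the difference, and leaving out each library. The fit of MyLa libraries alone with the block was added after the data were seen. Coordinates come from GENCODE 29 on GRCh38, which holds 96.5% of the deposited identifiers, and promoters from RefSeq (GRCh38.p14). Figures used matplotlib 3.10.9.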

Additional observations from a re-analysis of the deposited data

Results flagged for a closer look

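Each value below is the MyLa response minus the mean response of H9 and Mac1 on the log2 scale, for a named gene in which that difference passed edgeR's quasi-likelihood test at an adjusted p of 0.05. The difference itself was tested in each case. Causes were not tested. Under the replicate block 5 of the 41 lost their call: LST1 (adjusted p = 0.0591), HIST1H2BK (0.0597), PTGER3 (0.0586), SVIL2P (0.112) and CLYBL (0.063). The same 5 and A1BG, ALDOC, FLVCR2, GATA3, GFI1, NLRC5, PARP9, PLEKHB1, SAMD9L, SLC4A5, SREBF2 and UBASH3A lost it in at least 1 fit with 1 library left out.

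In genes that were themselves called in MyLa, the more positive responses were GBP1 4.23, SYTL1 2.85, GBP3 2.72, MIR4435-2HG 2.23, LST1 1.52, PARP9 1.29, EOMES 1.18, HLA-DQB2 1.18, SLC4A5 1.15, HIST1H2BK 1.04, RASGRP2 1.01, TENT5C 0.96, IL12RB1 0.96, PRDM1 0.87, RASGRP1 0.85, GFI1 0.71, SAMD9L 0.61 and NLRC5 0.54. GATA3 belongs here with 0.48, where the fall in MyLa was the smaller one. The more negative responses were GPR183 -0.93, FLVCR2 -0.90, RRM2B -0.83, TOX -0.68, KIF20A -0.66, BCL2L1 -0.61, DUSP2 -0.48, SREBF2 -0.38 and GNB1 -0.33.

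The other differences came from genes not called in MyLa. More positive were KCNA6 4.21, PLEKHB1 2.80, RASGRP3 1.62, PTGER3 1.59 and SVIL2P 1.56. Their fitted changes in MyLa were 0.56 for KCNA6, 0.04 for PLEKHB1, 0.42 for RASGRP3, -0.11 for PTGER3 and 0.24 for SVIL2P. In Mac1 the fitted changes were -7.91 for KCNA6, -5.53 for PLEKHB1 and -1.24 for RASGRP3, and in H9 they were -1.14 for RASGRP3 and -3.58 for PTGER3.

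More negative were LTA -1.39, SESN3 -1.34, UBASH3A -1.25, A1BG -1.15, ALDOC -1.14, GBE1 -1.12, CLYBL -1.10 and MAP2K6 -1.10. LTA, the cytokine lymphotoxin alpha, rose by 3.08 in Mac1 and was at 71.2 and 67.4 CPM in MyLa, and UBASH3A, a suppressor of T cell receptor signalling, rose by 2.53 in Mac1 and was at 40.7 and 42.1 CPM in MyLa. In A1BG no line was called by itself (H9 1.76, adjusted p = 0.0759). The ALDOC level of MyLa knockdown replicate 3, 100.1 CPM, lay above the 64.4 and 63.6 CPM of the other two knockdown libraries.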

How the results depend on the processing

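GATA3 kept its direction and its call in MyLa under every alternative run. Of 80 genes of the MyLa response that the naming rule covers 52 kept their call in every alternative, 28 lost it in at least 1 and none reversed. The 397 calls of the response became 616 with DESeq2, 1374 with MyLa libraries alone and 2712 with MyLa libraries alone and the replicate block, and 196 to 249 with 1 library left out. They were 351 with the replicate block in the fit of all libraries, and 344 of these were among the 397. The block ended the calls of 6 named genes of the response, each given with its result, and of 5 named differences (LST1, HIST1H2BK, PTGER3, SVIL2P and CLYBL), and changed no other. In the response limma-voom ended the calls of SLC7A5, NKG7, CTSS, CCR8 and ISG15. DESeq2 size factors in edgeR ended those of STAT5A, DUSP2 and ISG15. Without a filter STAT5A, CASP10, SELPLG, SLC27A2 and DUSP2 lost theirs, and with at least 10 counts in 2 libraries FTL and DUSP2 did. Of 41 named differences 18 kept their call in every alternative, 23 lost it in at least 1 and none reversed. Against 5 other lines 13 lost it, and 2 to 11 with 1 library left out. The 372 calls of the difference became 616 with DESeq2, 561 with limma-voom, 564 without a filter, 775 with H9, MyLa and Mac1 libraries alone, and 210 to 362 with 1 library left out, which was lowest without Mac1 control replicate 1. Without a filter the split of the difference was 310 higher and 254 lower, against 125 and 247. With the replicate block it was 301. Against the mean of 5 other lines it was 424, of which 176 were among the 372. The cause was not tested. The no-filter and MyLa-only fits tested 37428 and 15549 genes. With 3 libraries per group and 1 count worth 0.0361 to 0.0431 CPM, genes under 0.5 CPM rest on few counts.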
